A study of Capra hircus with 6 samples.

Results

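Intronic lncRNAs are long noncoding RNAs that lie within an intron of another gene. They were selected by the transcript type in the deposited lncRNA table. This type was carried by 218 of the 1336 lncRNA transcripts (16.3%). The other lncRNAs were 119 anti-sense and 999 intergenic transcripts. The paper's text exchanges the sizes of the intronic and anti-sense classes in one place, and the type in the table was followed. The lncRNAs measured by quantitative PCR were to be left out, but all were intergenic, so no member was lost. RNA was sequenced from fetal skin of goats (Capra hircus) on gestation day 100, in 6 libraries. Dark skin replicates 1, 2 and 3 belonged to the Youzhou dark goat, and white skin replicates 4, 5 and 6 to the Yudong white goat. According to the methods, pigmentation in the dark breed concerns the skin and mucosae, while the coat is as a rule white, and the fetuses came from 3 ewes of each breed. Both dorsal and ventral skin was collected, and the labels do not tell which site a library holds. Breed and skin colour are the same division here, so they cannot be told apart, and in whole skin neither can fewer cells of a type and less RNA per cell.

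Introns are removed from a precursor RNA when it is spliced, and most intronic sequence is degraded in the nucleus. Some introns nevertheless hold separate transcription units, on the strand of the host gene or on the opposite strand, and RNAs of this kind have been linked to the transcription of the gene around them. Only multiple-exon transcripts without coding potential were kept by the authors, so the members are spliced. The table gives a chromosome and a strand for each transcript but no start or end. Host genes, lengths and sequences were therefore not analysed here. The libraries were depleted of ribosomal RNA, and reads of an intronic lncRNA and of the unspliced RNA of a host on the same strand cannot be told apart in these values.

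Values are FPKM, which scales the fragments of a transcript by its length and by the yield of the library, as calculated by the authors with Cuffdiff. FPKM holds no counts, and no counting interval can be given. The FPKM of 1 fragment was estimated from mRNAs with low values, as the most frequent ratio between 2 libraries, which was shared by 106 to 187 of the 631 to 791 mRNAs compared. It was between 0.846 (dark skin replicate 3) and 1.01 (white skin replicate 6) times that in dark skin replicate 1. This ratio holds the sequencing depth together with the scaling of the library. Of the skin markers with a matched transcript, the keratinocyte list (KRT14, TP63 and DSG3) summed to between 265 and 521 FPKM and the fibroblast list to between 2399 and 3435 FPKM. The fibroblast collagens COL1A2 and COL3A1, each matched by 1 transcript, were listed at 0 in every library, so a listed 0 can be a value that was not estimated.

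Most intronic lncRNAs were present at a low level in every library. The mean FPKM over the 6 libraries had a median of 1.23 and quartiles of 0.719 and 1.73. It was under 0.5 for 35 members, at least 0.5 and under 1 for 46, at least 1 and under 2 for 95, and at least 2 for the rest, of which 5 lay between 5 and 10 and 2 above 10. A mean of at least 1 FPKM was reached by 62.8% of the intronic, 50.4% of the anti-sense and 42.8% of the intergenic lncRNAs. At the upper end the order was different, since the 90th percentile was 2.96 FPKM for intronic, 4.14 for anti-sense and 3.61 for intergenic lncRNAs. The intronic lncRNAs held 11.4% of the summed FPKM of all lncRNAs and 2 of the 50 most abundant lncRNA transcripts.

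The comparison with the other types was read within each library, because transcripts are not replicates. The same transcript lists are compared in every library, so the p-values concern agreement between libraries, and not whether the types differ beyond these transcripts. The median of log2(FPKM + 0.1) was higher for intronic than for intergenic lncRNAs by 0.44 ± 0.15 (SD, n = 6 libraries), in 6 of 6 libraries (2-sided exact permutation of signs, p = 0.0313, the smallest that 6 libraries allow). Against the anti-sense lncRNAs it was higher by 0.27 ± 0.19 (SD, n = 6 libraries), again in 6 of 6 libraries (the same exact permutation test, p = 0.0313). The distance to the anti-sense lncRNAs was uneven, at 0.02 in white skin replicate 5, 0.07 in dark skin replicate 1 and 0.27 in dark skin replicate 3, against 0.35 in dark skin replicate 2 and 0.46 in both white skin replicate 4 and white skin replicate 6. With the mean of the log2 values in place of their median, the difference from the anti-sense lncRNAs was 0.09 (exact permutation p = 0.250), so this call depends on the summary used.

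**Figure D1:**
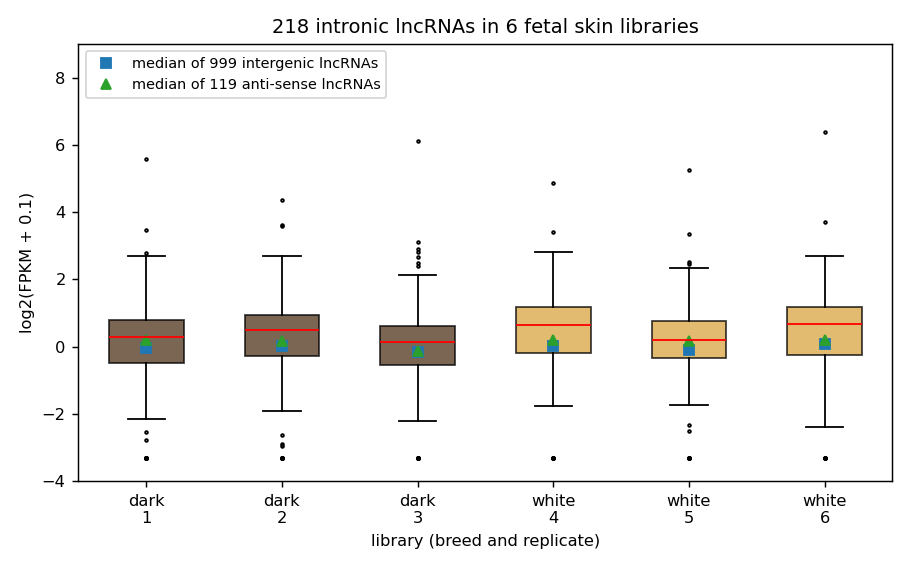
Boxes show log2(FPKM + 0.1) of the 218 intronic lncRNAs in each library (line, median; box, quartiles; whiskers, up to 1.5 times the box; dots, transcripts beyond them), brown for dark and yellow for white skin, with the medians of intergenic (squares) and anti-sense (triangles) lncRNAs. The intronic median lay above both other medians in 6 of 6 libraries, and was highest in white skin replicates 4 and 6.

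A single transcript stood far above the rest. TCONS_00084933 (chromosome 19, minus strand) had 47.7, 20.6 and 68.9 FPKM in dark skin replicates 1, 2 and 3 and 29.2, 37.7 and 83.1 FPKM in white skin replicates 4, 5 and 6. The breeds overlapped, and the highest and the lowest library differed 4.03-fold. Its mean of 47.9 FPKM was 4.50 times that of the next member, ranked ninth among all lncRNA transcripts, and made up 12.8% of the summed FPKM of the class.

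The next 7 members in order of abundance had means between 4.76 and 10.6 FPKM. TCONS_00171712 (chromosome 5, plus strand) had 10.96, 12.1 and 7.39 FPKM in dark skin and 10.5, 10.1 and 12.9 FPKM in white skin, with overlap. TCONS_00027743 (chromosome 11, minus strand) had 4.11, 12.3 and 8.59 FPKM in dark skin and 4.07, 4.67 and 3.45 FPKM in white skin. Dark skin replicates 2 and 3 were above every white skin library, whereas dark skin replicate 1 lay among them. TCONS_00215197 (chromosome X, minus strand) had 6.86, 4.26 and 6.89 FPKM in dark skin and 5.51, 3.27 and 3.64 FPKM in white skin, and these values overlapped. TCONS_00109160 (chromosome 21, plus strand) and TCONS_00039831 (chromosome 13, plus strand) had means of 5.08 and 4.76 FPKM, and the values of the breeds overlapped for both. Together the 8 most abundant members held 24.3% of the summed FPKM of the class.

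Some members hardly varied between the libraries. TCONS_00159447 (chromosome 3, plus strand) had 1.61, 1.73 and 1.78 FPKM in dark skin and 1.86, 1.52 and 1.78 FPKM in white skin, a coefficient of variation (SD divided by the mean) of 0.0722. TCONS_00112298 (chromosome 21, plus strand), the fourth most abundant member, had 5.61, 6.40 and 5.49 FPKM in dark skin and 6.32, 5.69 and 5.32 FPKM in white skin, a coefficient of variation of 0.0771. Both overlapped between the breeds. TCONS_00137516 (chromosome 26, plus strand) and TCONS_00000599 (unplaced scaffold, minus strand) followed with 0.102 and 0.129. TCONS_00000599 differed from these in that its dark skin values of 6.39, 5.28 and 6.29 FPKM all lay above its white skin values of 5.12, 4.96 and 4.73 FPKM, although the difference was small (0.27 on the log2 scale, standard error 0.15, adjusted p = 0.567 from limma).

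At the other end, TCONS_00126274 (chromosome 24, plus strand) had the largest coefficient of variation among members with a mean of at least 1 FPKM, 1.41. It had 0.179, 0.267 and 0.853 FPKM in dark skin and 6.07, 2.55 and 0.0907 FPKM in white skin, so that white skin replicates 4 and 5 were high and white skin replicate 6 was the lowest of all. The skeletal muscle markers with a matched transcript, CKM (muscle creatine kinase) and MYL1 (a myosin light chain of fast muscle), summed to 7.62, 7.86 and 53.6 FPKM in dark skin replicates 1, 2 and 3 and to 532, 181 and 5.11 FPKM in white skin replicates 4, 5 and 6, which is the same order of libraries. These are 2 of the 14 genes of the muscle list, and their part in the values of TCONS_00126274 was not tested. The transcript with the following number on the same chromosome and strand, TCONS_00126275, was also highest in white skin replicate 4. TCONS_00186056 (chromosome 6, minus strand), TCONS_00216617 (chromosome X, minus strand) and TCONS_00213169 (chromosome 9, plus strand) came next, with coefficients of 1.03, 0.993 and 0.986, and each was listed at 0 in 2 libraries. TCONS_00186056 had 0, 1.05 and 2.79 FPKM in dark skin and 1.13, 0 and 3.55 FPKM in white skin, and in all 3 the breeds overlapped.

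In total 185 members were above 0 in every library. A listed 0 occurred for 33 members (15.1%), against 14.3% of the anti-sense and 23.6% of the intergenic lncRNAs, and 9 members were at 0 in 3 or more libraries. TCONS_00203566 (chromosome 8, minus strand) was listed above 0 in dark skin replicate 1 alone, at 0.945 FPKM, and TCONS_00203398 (chromosome 8, plus strand) in white skin replicate 5 alone, at 0.840 FPKM. TCONS_00193423 (chromosome 7, minus strand) had 1.12 FPKM in dark skin replicate 1 and 3.19 FPKM in white skin replicate 5 and was at 0 elsewhere. TCONS_00148653 (chromosome 29, minus strand), TCONS_00176566 (chromosome 5, plus strand) and TCONS_00105048 (chromosome 20, plus strand) were each above 0 in 1 library of either breed. TCONS_00145188 (chromosome 28, minus strand), TCONS_00124851 (chromosome 23, plus strand) and TCONS_00047966 (chromosome 14, minus strand) were at 0 in 3 libraries. Apart from the 2 members seen in a single library, each of these was listed above 0 in both breeds.

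The intronic lncRNAs tended to rise and fall together from library to library. Their median was 1.11, 1.32 and 1.01 FPKM in dark skin replicates 1, 2 and 3 and 1.48, 1.05 and 1.49 FPKM in white skin replicates 4, 5 and 6. In white skin replicates 4 and 6, 73.9% and 75.7% of the members lay above their own mean over the libraries on the log2(FPKM + 0.1) scale, and in dark skin replicate 2 it was 60.1%. In dark skin replicates 1 and 3 and in white skin replicate 5, the share was 31.2%, 26.6% and 30.3%. High and low libraries were thus found within each breed.

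The corresponding shares ran from 31.1% (dark skin replicate 3) to 60.5% (white skin replicate 6) for the anti-sense lncRNAs and from 42.0% to 61.1%, in the same libraries, for the intergenic lncRNAs. White skin replicate 4, with 73.9% of the intronic lncRNAs above their own mean, had 48.7% of the anti-sense and 52.4% of the intergenic lncRNAs above theirs. The shares of transcripts are a description, since transcripts of 1 library share its normalization, and were not tested. The mRNAs with a mean of at least 0.1 FPKM had medians of 4.06, 4.22 and 4.43 FPKM in dark skin, in the order of replicates, and 4.57, 4.33 and 4.22 FPKM in white skin. Dark skin replicate 3, the lowest library for the intronic lncRNAs, was thus the second highest for mRNAs, and also held the most mRNA transcripts listed at 0 (3425, against between 3024 and 3288 in the others). Its lncRNAs listed at 0 were 13 intronic (9 to 16 in the others), 5 anti-sense (5 to 8) and 66 intergenic (71 to 93).

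**Figure D2:**
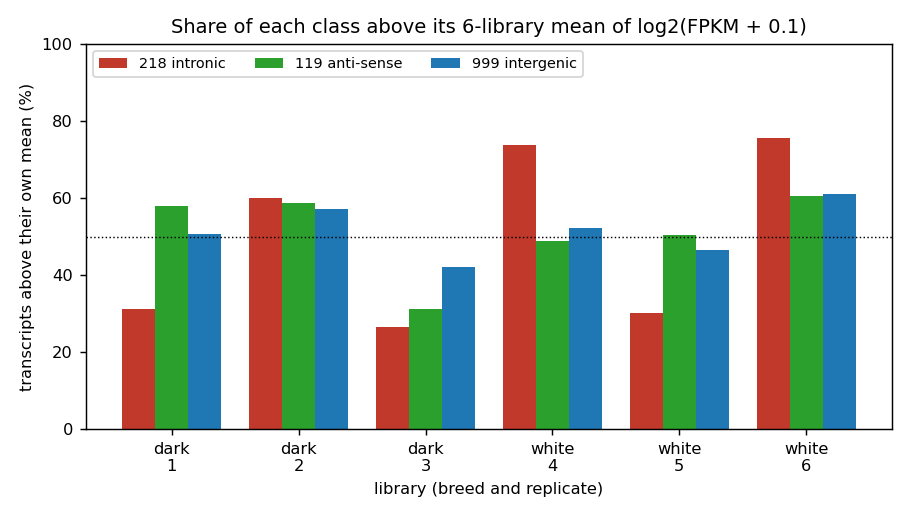
Bars give, for each library, the percent of intronic, anti-sense and intergenic lncRNAs whose log2(FPKM + 0.1) lay above their own mean over the 6 libraries, with a dotted line at 50%. The intronic bars run from 26.6% in dark skin replicate 3 to 75.7% in white skin replicate 6, and reach 30.3% in white skin replicate 5 between the tall bars of white skin replicates 4 and 6.

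White skin replicate 4 held the highest value of 74 members (33.9%) and white skin replicate 6 that of 61 (28.0%), whereas dark skin replicate 3 held the highest value of 7 and the lowest of 106 (48.6%, ties at 0 included). White skin replicates 4 and 6 held the highest value of 10.9% and 21.0% of the anti-sense and of 19.3% and 20.1% of the intergenic lncRNAs, and dark skin replicate 3 the lowest value of 27.7% and 27.4%. The same libraries stood out on both strands. The median was 0.975 FPKM for members on the plus strand and 1.02 FPKM for those on the minus strand in dark skin replicate 3, the lowest library for both, and it was highest in white skin replicate 4 for the plus strand (1.47 FPKM) and in white skin replicate 6 for the minus strand (1.61 FPKM). The pattern was weakest in the least abundant members. With the members divided by abundance into 3 groups of like size, 12.3% of the most abundant members lay above their own mean in dark skin replicate 3 and 82.2% in white skin replicate 6. In the middle group these shares were 25% and 86.1%, and among the least abundant members 42.5% and 58.9%. With each library centred on the median of all lncRNAs, dark skin replicate 3 held the lowest value of 33.5% of the members and white skin replicate 6 the highest of 14.2%, while centring on the mRNA median gave 50% and 36.7%. The size of the library pattern therefore depended on the reference chosen.

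The breeds were set against each other in a limma fit of log2(FPKM + 0.1) over the 1332 lncRNA transcripts with a mean of at least 0.1 FPKM, which all 218 intronic lncRNAs passed. No intronic lncRNA had a Benjamini-Hochberg adjusted p under 0.05 (0 of 218, where 0% of all lncRNA transcripts tested were called), and the smallest adjusted p was 0.228. An unadjusted p under 0.05 was obtained for 24 members (11.01%), against 8.78% of all lncRNA transcripts. It was found for 17 members with lower values in dark skin, against a background of 4.88%, and for 7 with higher values, against 3.9%. This count moved with single libraries. It was 10 without white skin replicate 4 (4.63%, against 5.59% of all lncRNA transcripts), 10 without white skin replicate 6 (4.59% against 7.99%), 11 without dark skin replicate 1 (5.07% against 6.26%) and 15 without dark skin replicate 3 (6.88% against 11.5%). The intronic share was thus below the background in these 4 fits, and above it without dark skin replicate 2 (11.5% against 7.59%) or white skin replicate 5 (38 members, 17.5% against 11.3%). It was also below the background with each library centred on the mRNA median (7.34% against 7.51%), so no excess of intronic lncRNAs held throughout.

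The differences were mostly small and leaned to lower values in dark skin. Their median was -0.32 over the intronic lncRNAs (quartiles -0.55 and -0.02), beside -0.11 over all lncRNA transcripts tested, 0.04 over the anti-sense and -0.06 over the intergenic lncRNAs. In 167 of the 218 members (76.6%) the difference was below 0, against 56.9% of all lncRNA transcripts. A difference of at least 1 was found for 9 members with higher and 15 with lower values in dark skin, and 133 members differed by less than 0.5 in either direction. These counts were not set beside counts of all lncRNA transcripts tested, whose differences had quartiles of -0.49 and 0.30. The members share the level of their library, so this lean was also read from the library medians. On the log2 scale the library medians averaged 0.31 ± 0.18 (SD, n = 3) for the dark and 0.51 ± 0.26 (SD, n = 3) for the white breed. The difference of -0.20 was slightly larger than the SD of the dark breed and smaller than that of the white breed. Its exact permutation test (2-sided) gave p = 0.300, where 3 against 3 libraries cannot go below 0.1. With a library left out this difference ran from -0.35 to -0.12. The distance between the intronic and the intergenic median was 0.37 ± 0.10 (SD, n = 3) in dark and 0.50 ± 0.19 (SD, n = 3) in white skin (exact permutation p = 0.400). The median difference over the members was -0.18 without dark skin replicate 3 and -0.41 without white skin replicate 5, the ends of the range with a library left out. Over all lncRNA transcripts tested it was -0.04 and -0.16 in these 2 fits.

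**Figure D3:**
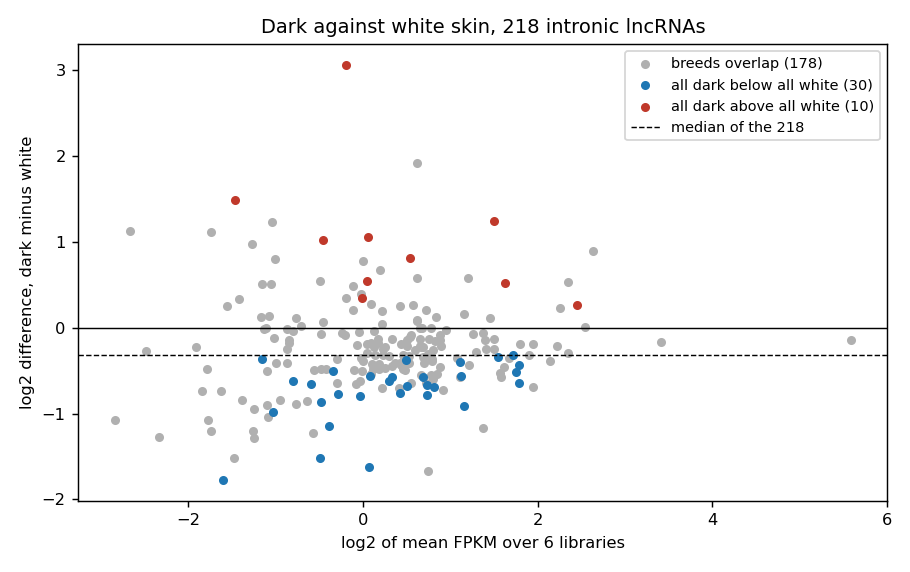
Each point is an intronic lncRNA, with the log2 of its mean FPKM on the x axis and the limma difference of log2(FPKM + 0.1), dark minus white skin, on the y axis, coloured by whether the 3 values of each breed overlap. Most points lie within 0.5 of 0, the dashed median is at -0.32, and the 30 members with all dark below all white values outnumber the 10 with the opposite order.

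All 3 values of one breed lay above all 3 of the other for 40 intronic lncRNAs (18.3%), against 15.9% of all lncRNA transcripts tested. Of these, 30 were lower in dark skin (13.8%, background 9.83%) and 10 were higher (4.59%, background 6.08%). All 40 had a mean of at least 0.5 FPKM in at least 1 breed. The count was 92 (42.2%) without dark skin replicate 2 and 97 (44.7%) without white skin replicate 5, against 27.4% and 30.5% of all lncRNA transcripts tested in the same libraries. It was 57 (26.1%) without dark skin replicate 3, below the 29.8% of all lncRNA transcripts, and the share was 22.6% without dark skin replicate 1, 22.7% without white skin replicate 4 and 22.0% when white skin replicate 6 was left out, against 23.8%, 22.6% and 24.8%. With each library centred on the mRNA median, 31 members (14.2%) did not overlap, against 14.4% of all lncRNA transcripts. The share of members without overlap was thus above the background in some settings and at or below it in others. With each library centred on the median of the intronic lncRNAs themselves, which moved the median difference of all lncRNA transcripts from -0.11 to 0.09 and that of the intronic lncRNAs from -0.32 to -0.12, 17 members were higher and 31 lower without overlap (48 in all, 22.0% against 16.9%). Among the 30 members that were lower, 17 had their lowest value in dark skin replicate 3, and 2 had their highest in white skin replicate 5. In this order the lowest value always falls in dark and the highest in white skin. Over all members, dark skin replicates 1, 2 and 3 held the lowest value of 47, 22 and 106 (ties at 0 included). White skin replicates 4, 5 and 6 held the highest value of 74, 17 and 61. The 10 members that were higher in dark skin reached their highest value in dark skin replicate 1 (6 members) or dark skin replicate 2 (4 members). Over all members, dark skin replicates 1, 2 and 3 held the highest value of 25, 34 and 7.

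Among members higher in dark skin without overlap, TCONS_00135133 (chromosome 25, minus strand) had 3.36, 4.32 and 4.26 FPKM in dark skin and 2.01, 1.02 and 2.01 FPKM in white skin. Dark skin exceeded white skin by 1.25 on the log2(FPKM + 0.1) scale (standard error 0.28; limma adjusted p = 0.257). TCONS_00171461 (chromosome 5, plus strand) had 2.34, 1.08 and 1.26 FPKM in dark skin and 0.568, 0 and 0 FPKM in white skin, with white skin replicate 4 as the only white skin library listed above 0. Its fitted difference was the largest, 3.07 (standard error 0.82, adjusted p = 0.357 from limma), and depends on the constant added to values at 0. TCONS_00040094 (chromosome 13, plus strand) had 0.844, 0.288 and 0.639 FPKM in dark skin and 0.195, 0.0991 and 0.107 FPKM in white skin, so that the gap between the breeds was narrow beside the spread within dark skin. TCONS_00189041 (chromosome 6, minus strand) had 0.887, 1.88 and 1.60 FPKM in dark skin and 0.505, 0.635 and 0.728 FPKM in white skin, a difference of 1.06. TCONS_00147254 (chromosome 29, plus strand) and TCONS_00002172 (unplaced scaffold, plus strand) differed by 1.03 and 0.82. These 6 members were chosen as the largest rises without overlap, so differences larger than the standard error follow from that choice. None of them passed the adjusted threshold.

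Among members lower in dark skin without overlap, TCONS_00184653 (chromosome 6, plus strand) had the smallest unadjusted p of the class (0.00153, adjusted p = 0.228 from limma). It had 0.454, 0.419 and 0.465 FPKM in dark skin and 1.31, 1.28 and 2.35 FPKM in white skin, a difference of -1.63 (standard error 0.34). The 3 dark skin libraries were nearly equal, and white skin replicate 6 was the highest. TCONS_00042354 (chromosome 13, plus strand) had 1.60, 1.52 and 1.41 FPKM in dark skin and 3.62, 2.41 and 2.87 FPKM in white skin, a difference of -0.91 with a standard error of 0.21 (limma adjusted p = 0.257). Here too the dark skin libraries lay close together, and the white skin libraries spread over a range of more than 1 FPKM. TCONS_00027789 (chromosome 11, minus strand) had 0.298, 0.352 and 0.697 FPKM in dark skin and 1.37, 0.784 and 1.09 FPKM in white skin, a difference of -1.14 (standard error 0.42). Dark skin replicate 3 was close to white skin replicate 5 in this member.

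The other 3 rested on lower values. TCONS_00035137 (chromosome 12, plus strand) had 0, 0.0301 and 0.347 FPKM in dark skin and 0.722, 0.354 and 0.523 FPKM in white skin, and dark skin replicate 3 was only just below white skin replicate 5. TCONS_00040868 (chromosome 13, plus strand) had 0.530, 0.769 and 0 FPKM in dark skin and 0.896, 0.9998 and 1.08 FPKM in white skin. Its difference of -1.52 (standard error 0.79) was -0.56 without dark skin replicate 3, the library listed at 0. TCONS_00114660 (chromosome 22, plus strand) had 0.291, 0.315 and 0.241 FPKM in dark skin and 0.841, 0.347 and 0.906 FPKM in white skin. White skin replicate 5 was nearer to the dark skin libraries than to the other white skin libraries. The remaining 24 members that were lower without overlap had differences as small as -0.32.

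**Figure D4:**
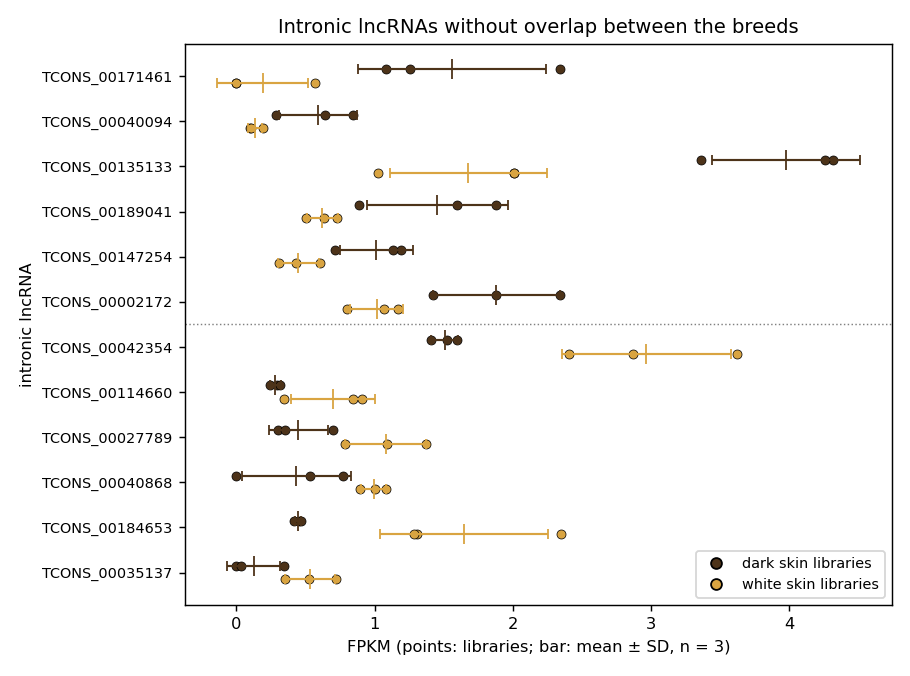
FPKM of the 6 intronic lncRNAs that were most raised and the 6 most lowered in dark skin, taken from those without overlap between the breeds (points, libraries; bars, mean ± SD, n = 3 per breed). TCONS_00135133 lies at 3.36 to 4.32 FPKM in dark and 1.02 to 2.01 FPKM in white skin, and TCONS_00184653 at 0.419 to 0.465 FPKM in dark and 1.28 to 2.35 FPKM in white skin.

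Intronic lncRNAs were listed on all 29 named chromosomes of the table (2 to 29 and X), with 2 members on unplaced scaffolds. No lncRNA of any type was listed on a chromosome numbered below 2, and the reason was not tested. The counts and shares by chromosome therefore cover the listed chromosomes only. Chromosome 7 held the most, 15 of its 72 lncRNA transcripts (20.8%), followed by chromosomes 11, 21 and 22 with 13 each. As a share of the lncRNAs on a chromosome, intronic lncRNAs were most frequent on chromosomes 22 (33.3%) and 21 (31.7%) and least frequent on chromosomes 19 (2 of 37, 5.41%), 2 (3 of 53, 5.66%) and 23 (2 of 33, 6.06%). Chromosome 5, with the most lncRNA transcripts (77), held 8 intronic ones (10.4%). Chromosome X held 10 of 49 (20.4%). The number of genes and the length of introns on each chromosome were not available to set beside these shares, and they were not tested.

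**Figure D5:**
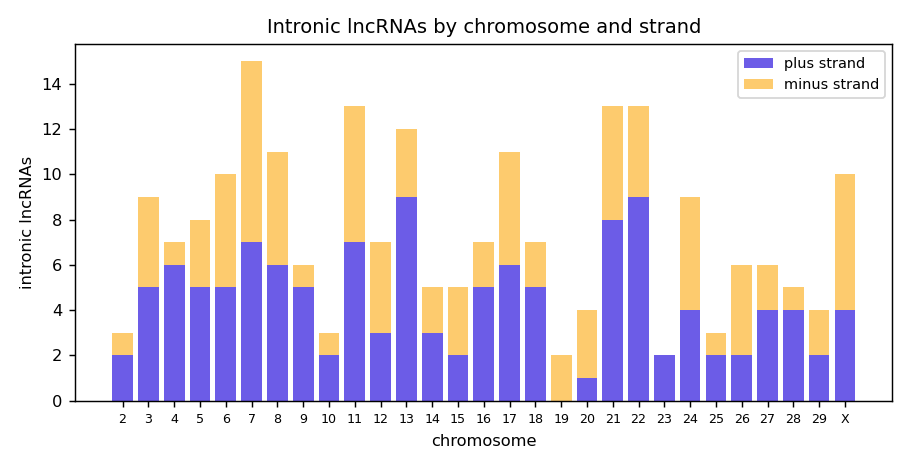
Stacked bars count the intronic lncRNAs on each named chromosome, by strand. Chromosome 7 has the tallest bar with 15, and chromosomes 19 and 23 the lowest with 2 each.

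On the plus strand lay 126 members (57.8%) and on the minus strand 92. For the anti-sense lncRNAs the plus strand share was 44.5% and for the intergenic lncRNAs 45.9%. The strands are those of the reference sequence and do not tell whether a member runs with or against its host. Members on the minus strand had a median of mean FPKM of 1.34 and those on the plus strand of 1.17. The breed difference had a median of -0.33 on the minus and -0.26 on the plus strand, and a difference between the strands was not tested. Without overlap, 17 members on the minus strand were lower (18.5%, against 10.1% of all lncRNA transcripts on that strand) and 3 were higher (3.26% against 7.18%). On the plus strand, 13 were lower (10.3% against 9.59%) and 7 were higher (5.56% against 4.87%).

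The median breed difference is given by chromosome as a description, since the members of every chromosome share the levels of the same libraries. The 11 chromosomes with at least 9 members held 126 of them. The intronic median was below 0 on all 11, from -0.13 on chromosome 11 to -0.53 on chromosome 22, and the median of all lncRNA transcripts on 10 of the 11. Among chromosomes with fewer members, the lowest medians were those of chromosomes 10 (-0.84, 3 members), 20 (-0.69, 4 members), 27 (-0.63, 6 members) and 12 (-0.50, 7 members). The median was above 0 on chromosome 16 (0.21, 7 members), chromosome 14 (0.49, 5 members) and chromosome 29 (0.31, 4 members), and on chromosomes 23 and 25 with 2 and 3 members. The 30 members that were lower without overlap came from 16 chromosomes, with 3 each on chromosomes 9, 12, 13 and 22. The 10 that were higher came from 9 chromosomes or scaffolds, and chromosome 16 alone held 2.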

How the data were processed

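FPKM values of 1336 lncRNA and 27947 mRNA transcripts were deposited by the authors for each of the 6 libraries. Following the methods and the submitters' processing notes, the authors aligned the reads with TopHat2 2.0.9, assembled transcripts with Cufflinks 2.1.1 and Scripture, and calculated FPKM with Cuffdiff 2.1.1 (the notes also name 2.2.2). The goat genome was that of a public goat genome site, and its build name is not given in the sources used here. A deposited mean of the 6 libraries was not used. FPKM depends on the library normalization, whose Cuffdiff setting is not given in the sources used here. The files hold no counts, so the fragments behind a value are unknown.

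Members were selected by the deposited type. The members and lists were chosen with earlier results of these data known. A linear model of log2(FPKM + 0.1) with breed as its only term was fitted over the lncRNA table in limma 3.58.1 (R 4.3.3), with a trended eBayes prior, and its 2-sided p-values were adjusted by Benjamini-Hochberg. The test was checked on simulated data in which transcripts varied independently, so the check does not cover shifts shared by the transcripts of a library. A log2 difference on this scale understates changes of low values. Library medians were tested by exact permutation in Python 3.11.15 with numpy 2.4.6 and pandas 2.3.3. The methods name 3 ewes per breed, but no source ties a library to an animal, so p-values measure the spread between these libraries.

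Described by rule were the 8 most abundant members, any with an adjusted p under 0.05, the 6 largest rises and falls without overlap and with at least 0.5 FPKM in 1 breed, the 4 largest and smallest coefficients of variation with a mean of at least 1 FPKM, and members at 0 in 3 or more libraries. TCONS_00126275 was named after its values were seen. mRNA symbols came from RefSeq accessions without version, by way of RefSeq's list of genes for ARS1.2, another goat assembly (9497 of 27947 matched). Of the marker lists, 6 of 13 melanocyte, 3 of 11 keratinocyte, 6 of 8 fibroblast, 2 of 14 skeletal muscle and 4 of 9 erythroid genes had a match. The test of host mRNAs was not run, as the tables hold no positions.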

Additional observations from a re-analysis of the deposited data

How the results depend on the processing

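No paired analysis was possible because the breeds share no replicate number. No intronic lncRNA passed the adjusted threshold under any alternative run (pseudocounts of 0.01 and 1, no filter, a mean of at least 1 FPKM, 3 scalings, no trend, both tables in 1 fit, each library left out, and centring on the intronic median, added after seeing the data). Over all lncRNA transcripts, 2 passed with lncRNA or intronic centring, quantile normalization, no trend, or without dark skin replicate 3. The direction of the 13 named members without overlap is fixed by that choice in most settings. Of 22 other named members, 12 turned direction in at least 1 setting. Without overlap there were 25 members at a mean of at least 1 FPKM (18.2%, against 17.4% of all lncRNA transcripts) and between 48 and 97 with a library left out (22.0% to 44.7%, against 22.6% to 30.5%). With a library left out, the intronic median lay above the intergenic by 0.399 to 0.468 and above the anti-sense by 0.234 to 0.322, where 5 libraries cannot give an exact permutation p under 0.0625. With means of log2 values these differences were 0.289 and 0.0903, and with a pseudocount of 1 they were 0.248 and 0.159. The following shares and their alternatives were chosen after seeing the data. The share of members lowest in dark skin replicate 3 was 58.4% at a mean of at least 1 FPKM, 33.5% centred on the lncRNA median and 35.8% after quantile normalization. The share highest in white skin replicate 4 was 23.4% centred on the mRNA median. For white skin replicate 6 it was 35.0% at a mean of at least 1 FPKM, 14.2% and 36.7% centred on the lncRNA and the mRNA median, 21.1% after quantile normalization, and 20.6% and 38.0% on the plus and the minus strand. One transcript per locus and host mRNAs were not run, since no positions are given. Without counts, the part of depth in values listed at 0 was not tested.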

Other observations

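Assembled transcripts are numbered along the genome, and 8 pairs of intronic lncRNAs had numbers at most 2 apart on the same chromosome and strand, so they may share a locus. In 4 of the 8 pairs both members were highest in the same library. TCONS_00197133 and TCONS_00197134 (chromosome 7, minus strand) had means of 4.66 and 2.84 FPKM, and TCONS_00192869 and TCONS_00192870, also on chromosome 7, had 1.38 and 2.75 FPKM. TCONS_00035136 and TCONS_00035137 (chromosome 12, plus strand) had means of 0.358 and 0.329 FPKM and were both highest in white skin replicate 4. TCONS_00114659 and TCONS_00114660 (chromosome 22, plus strand) had means of 0.546 and 0.490 FPKM, but the breeds did not overlap for the second alone. Such pairs may therefore not be independent observations, which was not tested.

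The melanocyte markers with a match, among them DCT and MLANA of melanosomes, summed to 67.3, 51.3 and 45.0 FPKM in dark skin replicates 1, 2 and 3 and to 29.2, 37.0 and 47.1 FPKM in white skin replicates 4, 5 and 6. The erythroid list summed to between 1.98 and 4.16 FPKM in dark skin and between 7.31 and 15.5 FPKM in white skin, without overlap. Most of these sums came from 1 ALAS2 transcript. It had 1.56, 3.63 and 1.48 FPKM in dark skin and 6.29, 6.92 and 13.5 FPKM in white skin, in the order of replicates. HEMGN, at low values, was also without overlap, whereas EPB42 overlapped between the breeds and AHSP was near 0 except in white skin replicate 5. Neither list had the library order of the intronic medians, and the part of either list in the intronic values was not tested.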
